A study of Mus musculus with 6 samples.

Results

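The miR-322 to miR-450b cluster is a run of miRNA hairpins transcribed from 1 strand of the mouse X chromosome. Its 9 mature miRNAs considered here were taken by name from the deposited miRNA table: both arms of miR-322, miR-503, miR-542 and miR-450b, and the 5p arm of miR-351. All 9 were listed among 392 mature miRNAs, and all 9 passed the filter on low counts that left 322 for testing. Small RNA was sequenced from skeletal muscle in 3 libraries after transverse aortic constriction (TAC) and 3 after a sham operation (Sham), all of male C57BL6 mice at an age of 16 weeks. Narrowing the aortic arch raises the load on the heart and is a standard mouse model of heart failure. Every mouse received normal chow, and the labels give 8 weeks of treatment for each sample and a harvest at 8 to 10 weeks in the protocol. They name neither the muscle taken nor the number of animals behind a library. The p-values therefore weigh group differences only against the spread between these libraries.

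A hairpin is cut into a 5p and a 3p strand, and usually 1 strand, the guide, stays in the silencing complex and finds target mRNAs through its seed, bases 2 to 8. In cultured mouse myoblasts, miR-322 and miR-503 are known to promote exit from the cell cycle by lowering the phosphatase Cdc25A, and miR-351 is known to act on the cell cycle factor E2f3. The human counterparts of miR-542 have been linked to muscle wasting. The comparison asks whether muscle carries a different level of these miRNAs after TAC than after a sham operation. In bulk muscle, fewer cells of a type and less RNA per cell cannot be told apart.

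The mature sequences are shown because their seeds and base composition recur in the results. They are from RefSeq (GRCm38.p6), read 5′ to 3′, with the seed in capitals.
mmu-miR-322-5p: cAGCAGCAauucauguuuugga
mmu-miR-503-5p: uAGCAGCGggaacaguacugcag
mmu-miR-351-5p: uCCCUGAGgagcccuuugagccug
mmu-miR-542-3p: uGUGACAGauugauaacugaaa
mmu-miR-450b-5p: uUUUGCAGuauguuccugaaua
mmu-miR-322-3p: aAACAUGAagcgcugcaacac
mmu-miR-503-3p: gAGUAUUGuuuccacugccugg
mmu-miR-542-5p: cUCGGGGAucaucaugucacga
mmu-miR-450b-3p: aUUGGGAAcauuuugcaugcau
The seeds of miR-322-5p and miR-503-5p share 6 of 7 bases and differ by A8G, counted from the 5′ end with the base of miR-322-5p first. The seed of miR-322-5p is also that of the miR-15/16 family, and the seed of miR-351-5p is that of miR-125a-5p and miR-125b-5p. No pair of members has the same seed.

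The hairpins lie on the minus strand of chromosome X in the order Mir322 (53054255 to 53054349), Mir503 (53053984 to 53054054), Mir351 (53053255 to 53053353), Mir542 (53049403 to 53049487) and Mir450b (53047997 to 53048078), in GRCm38 coordinates of GENCODE M21. The Mir450b hairpin starts 6271 nucleotides downstream of the start of Mir322. A noncoding gene, C430049B03Rik, ends upstream of Mir322, and the lincRNA Gm28730 lies between Mir351 and Mir542. The Mir322 hairpin is shown because its 3p arm is the member that passed the test, with both arms in capitals.
Mir322: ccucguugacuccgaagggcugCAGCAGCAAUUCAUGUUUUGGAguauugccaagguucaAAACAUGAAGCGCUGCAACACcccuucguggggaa
The Mir542 hairpin is shown because its arms have the largest fold change estimates and the most unequal base composition.
Mir542: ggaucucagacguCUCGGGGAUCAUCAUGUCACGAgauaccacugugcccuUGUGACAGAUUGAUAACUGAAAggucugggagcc
Of 438 annotated mRNA and other RNA transcripts listed with fragments, 0 came from this locus. Of 1832 listed sequences without annotation, 0 started in its hairpins. The transcript list holds only features with at least 10 unique molecular identifiers (UMIs) in some library, so these counts do not show that the precursor is absent.

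Libraries held 2145221 to 2874724 miRNA UMIs in TAC and 1179365 to 3440232 in Sham, with Sham 3 the shallowest. UMIs mark single molecules before amplification. Levels are UMI counts scaled to 1000000 miRNA UMIs per library with TMM factors (CPM), and errors are SD over n = 3 libraries. The 7 muscle fibre miRNAs, led by miR-1a-3p and miR-133a-3p, summed to 634713 to 702638 CPM in TAC and 442821 to 588226 CPM in Sham. Adapter ligation is uneven between sequences, which limits comparisons of level between miRNAs.

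Of the 9 members, 1 passed the test, and most of the others had a lower mean level in TAC without passing it. The member that passed was miR-322-3p, which fell in TAC by edgeR's quasi-likelihood test with Benjamini-Hochberg adjustment over all 322 miRNAs. No member passed upward. Over all tested miRNAs, 22.0% passed the same test, 15.8% lower and 6.21% higher in TAC, so a count of 1 in 9 is close to what all miRNAs show. Log2 fold changes were below 0 for 8 of 9 members, against 48.8% of all tested miRNAs. The median was -0.69 over the members and 0.04 over all tested miRNAs. At an unadjusted edgeR p under 0.05 there were 3 members, miR-322-3p, miR-503-5p and miR-542-5p. By p they ranked 70, 80 and 95 among the 322 miRNAs, so many other miRNAs also met this cut. For the same 3 the highest TAC value lay below the lowest Sham value, where 22.4% of all tested miRNAs were lower without overlap and 40.4% did not overlap in either direction.

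**Figure D1:**
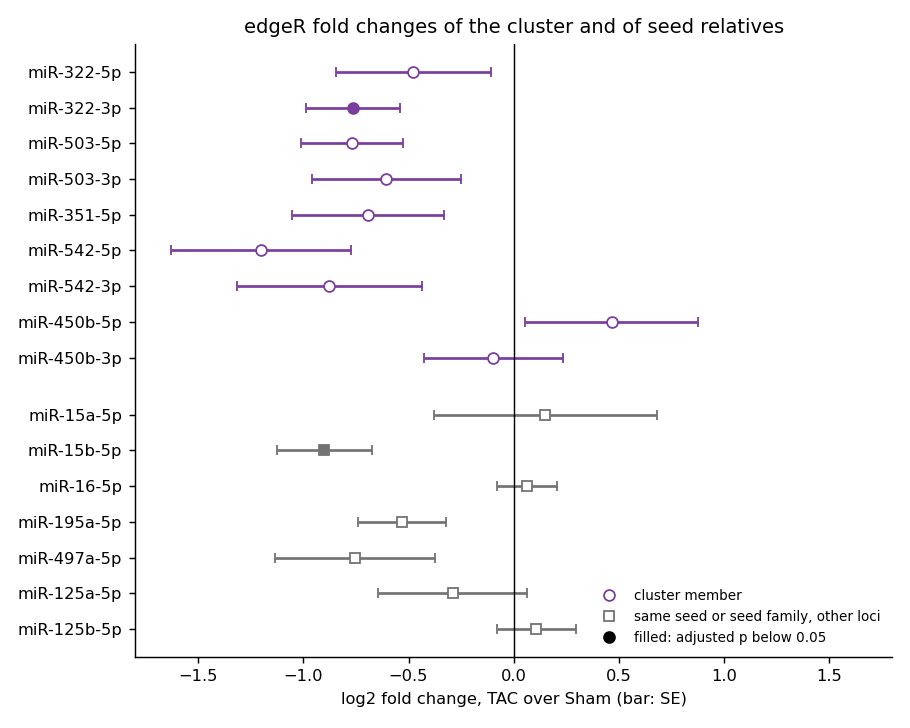
Log2 fold change of TAC over Sham by edgeR (x axis) with its SE as a bar, for the 9 cluster members and for tested miRNAs of the same seed families at other loci; filled symbols passed the threshold. Of the members only miR-322-3p is filled and miR-450b-5p alone lies above 0, and among the relatives miR-15b-5p is filled.

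Summed over the members, the cluster had 815, 884 and 718 CPM in TAC 1, 2 and 3, against 1231, 1516 and 721 CPM in Sham 1, 2 and 3. The groups overlapped: Sham 3 lay far below the other Sham libraries, under TAC 1 and 2 and just above TAC 3. The sum is mostly miR-322-5p, which made up 82.3% ± 5.83 of the members' UMIs in TAC and 77.6% ± 11.2 in Sham. Without miR-322-5p the other 8 members summed to 111, 134 and 175 CPM in TAC, against 202, 234 and 255 CPM in Sham. Here every TAC library was below every Sham library, with a ratio of the means of 0.608. This sum leaves out miR-322-5p, whose groups overlapped, but keeps miR-503-3p, miR-351-5p, miR-542-3p and both arms of miR-450b, whose groups also overlapped. Of single tested miRNAs, 22.4% were lower in TAC without overlap. No p is given for these sums.

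The guide strand of the first hairpin, miR-322-5p, which restrains cell cycle genes through the miR-15/16 seed, was the most abundant member. It had 703, 750.0 and 543 CPM in TAC 1, 2 and 3, against 1029, 1282 and 466 CPM in Sham 1, 2 and 3. Sham 3 was the lowest of all 6 libraries, so the groups overlapped. The log2 fold change was -0.48 (SE 0.37, edgeR adjusted p = 0.378). Without Sham 3 it was -0.73 with an edgeR adjusted p of 0.0476, and without Sham 2 it was -0.18 (edgeR adjusted p = 0.757).

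Its partner strand miR-322-3p, the less abundant arm, varied little within each group. It had 24.2, 23.97 and 26.8 CPM in TAC 1, 2 and 3, against 44.7, 43.1 and 39.4 CPM in Sham 1, 2 and 3. These values rest on 49 to 62 UMIs per TAC library and 56 to 161 UMIs per Sham library. The groups stood well apart, with every TAC library below 30 and every Sham library above 39 CPM. The log2 fold change was -0.76 (SE 0.22, edgeR adjusted p = 0.0455), a level in TAC of 0.589 of that in Sham. The call is close to the threshold. Leaving out any single library but Sham 3 ended it, with edgeR adjusted p-values of 0.0709 to 0.18, as did upper-quartile factors (edgeR adjusted p = 0.0978), no filter (edgeR adjusted p = 0.0589) and DESeq2 (adjusted p = 0.0583). Over all 18 alternatives its log2 fold change was between -1.04 and -0.67.

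The second hairpin gave 2 strands of similar level. Its guide miR-503-5p, which shares most of the seed of miR-322-5p, had 15.6, 14.2 and 17.9 CPM in TAC 1, 2 and 3, against 25.6, 29.1 and 26.7 CPM in Sham 1, 2 and 3. The groups did not overlap, and the Sham libraries were within 4 CPM of each other. Its log2 fold change was -0.77 (SE 0.24), nearly that of miR-322-3p, with an edgeR adjusted p of 0.0568. The other strand, miR-503-3p, had 12.5, 12.7 and 17.9 CPM in TAC 1, 2 and 3, against 17.5, 16.8 and 32.3 CPM in Sham 1, 2 and 3. Here the libraries numbered 3 were the highest of both groups and the groups overlapped. The log2 fold change of miR-503-3p was -0.60 (SE 0.35, edgeR adjusted p = 0.257), and -0.20 without Sham 3.

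The 5p arm of the third hairpin, miR-351-5p, carries the miR-125 seed. It had 33.2, 53.3 and 79.5 CPM in TAC 1, 2 and 3, against 68.6, 89.8 and 110.4 CPM in Sham 1, 2 and 3. In both groups number 1 was lowest and number 3 highest, and TAC 3 exceeded Sham 1. This gave a log2 fold change of -0.69 (SE 0.36, edgeR adjusted p = 0.213).

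Both arms of the fourth hairpin had larger fold change estimates than the other members, with larger SEs. The 5p arm, miR-542-5p, had 5.46, 9.78 and 13.9 CPM in TAC 1, 2 and 3, against 16.9, 18.4 and 32.3 CPM in Sham 1, 2 and 3. The groups did not overlap, though TAC 3 came near Sham 1. The log2 fold change of miR-542-5p was -1.20 (SE 0.43, edgeR adjusted p = 0.083), from 62 UMIs over TAC and 153 over Sham. The 3p arm, miR-542-3p, had 10.9, 10.8 and 8.94 CPM in TAC 1, 2 and 3, against 20, 27.5 and 7.73 CPM in Sham 1, 2 and 3. Sham 3 again lay below every TAC library. The log2 fold change of miR-542-3p was -0.88 (SE 0.44, edgeR adjusted p = 0.206), and -1.14 with an edgeR adjusted p of 0.0249 without Sham 3. In that fit without Sham 3, miR-322-5p, miR-322-3p and miR-542-3p passed, 3 of 9, where 14.8% of all tested miRNAs passed lower. Scaled by library size alone, miR-322-3p, miR-503-5p and miR-542-5p passed in edgeR, where 21.1% of all tested miRNAs passed lower. That scaling gave 68 lower and 10 higher calls over all miRNAs, against 51 lower and 20 higher with TMM, and moved the median log2 fold change of all miRNAs by -0.28.

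The last hairpin had the lowest levels and estimates nearest to or above 0. Its 5p arm, miR-450b-5p, ranged from 3.91 to 6.46 CPM in TAC and from 2.11 to 5.59 CPM in Sham, with a log2 fold change of 0.47 (SE 0.41, edgeR adjusted p = 0.439). Its 3p arm, miR-450b-3p, ranged from 3.51 to 5.38 CPM in TAC and from 3.99 to 5.28 CPM in Sham, with a log2 fold change of -0.10 (SE 0.33, edgeR adjusted p = 0.845). The arms held 3 to 19 UMIs per library. Of the remaining arms of the locus only miR-450a-5p, made from both Mir450-1 and Mir450-2, was listed, with 17 UMIs over TAC and 22 over Sham, under the filter for testing.

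**Figure D2:**
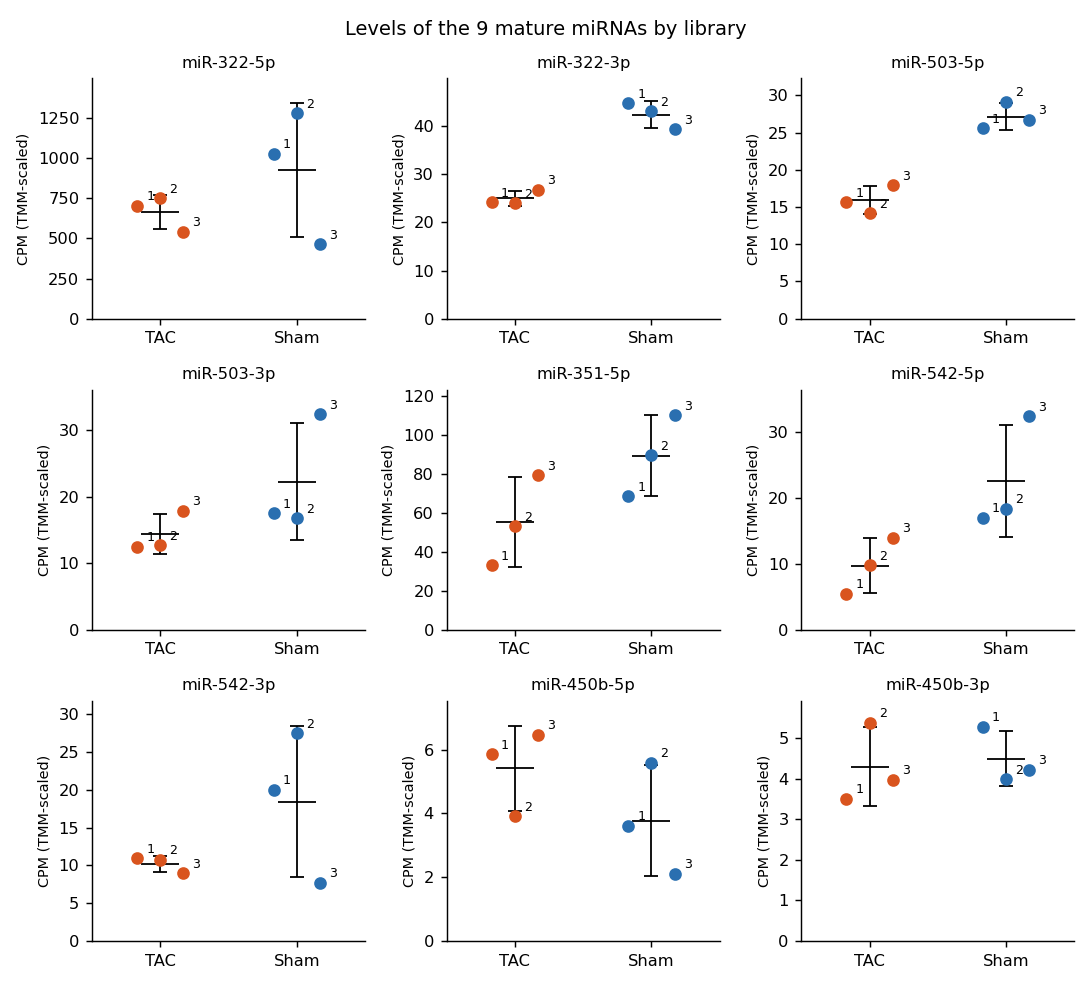
CPM (y axis, from 0) of each member in the 3 TAC and 3 Sham libraries; numbers beside the points are the replicate numbers, and black bars give mean and SD. The groups separate for miR-322-3p, miR-503-5p and miR-542-5p, and Sham 3 is the lowest library for miR-322-5p, miR-542-3p and miR-450b-5p.

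**Figure D3:**
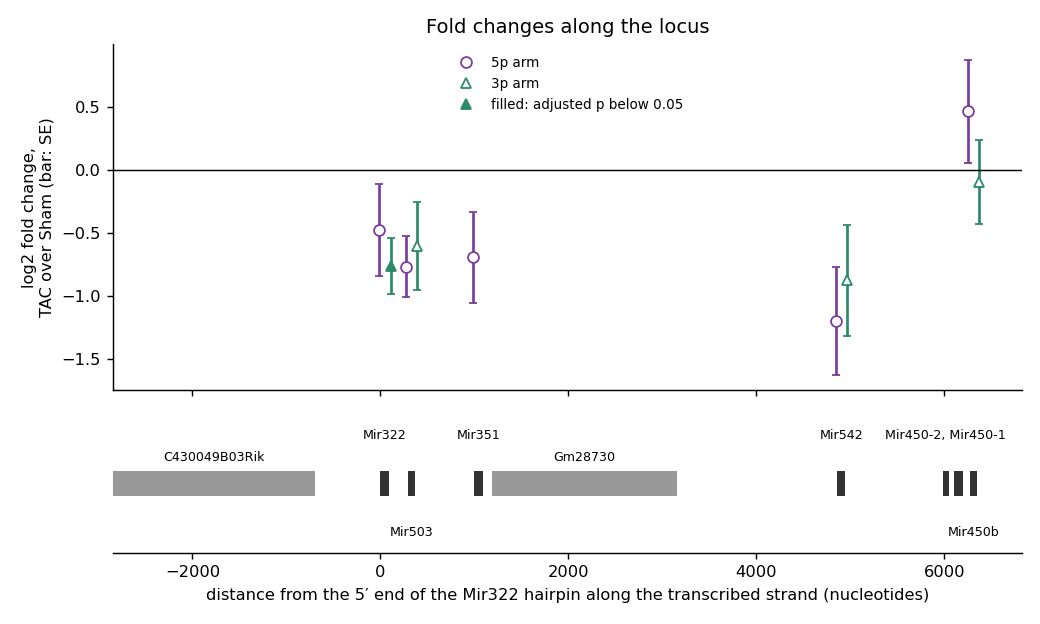
Log2 fold change of TAC over Sham with its SE (upper panel) against the distance from the 5′ end of the Mir322 hairpin, with the annotated genes of the strand below; the arms of a hairpin are drawn slightly apart for legibility. Members from Mir322 to Mir542 lie between -1.20 and -0.48, and those of Mir450b at -0.10 and 0.47.

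In order of level, miR-322-5p stood far above the rest, followed by miR-351-5p and miR-322-3p in both groups. In TAC, miR-351-5p (55.3 ± 23.2 CPM) and miR-322-3p (25.0 ± 1.59 CPM) were followed by miR-503-5p (15.9 ± 1.87), miR-503-3p (14.4 ± 3.05), miR-542-3p (10.2 ± 1.10) and miR-542-5p (9.72 ± 4.23). In Sham, miR-351-5p (89.6 ± 20.9 CPM) and miR-322-3p (42.4 ± 2.75 CPM) were followed by miR-503-5p (27.1 ± 1.82), miR-542-5p (22.5 ± 8.51), miR-503-3p (22.2 ± 8.79) and miR-542-3p (18.4 ± 9.995). From miR-503-5p to the last of these, neighbours differed by less than the larger of their SDs, except miR-503-3p and miR-542-3p in TAC. The arms of miR-450b came last, with 5.41 ± 1.33 (5p) and 4.29 ± 0.974 CPM (3p) in TAC, and 3.77 ± 1.74 (5p) and 4.49 ± 0.687 CPM (3p) in Sham.

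The labels give both groups replicate numbers, and libraries with the same number deviated together, most of all those numbered 3, while numbers 1 and 2 were as alike crosswise. With the replicate number as a block, 4 of 9 members passed, all lower in TAC, where 34.5% of all tested miRNAs passed and 21.7% passed lower. They were miR-322-3p (edgeR adjusted p = 0.0343), miR-503-5p (0.0491), miR-351-5p (0.0264) and miR-542-5p (0.0157), the last 3 values also being edgeR adjusted p-values. With the block miR-322-5p was at -0.37 (edgeR adjusted p = 0.214). Without both libraries numbered 3, 6 of 9 members passed by edgeR, all lower in TAC, where 24.3% of all tested miRNAs did. That fit kept only libraries 1 and 2 of each group.

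Members of the cluster did not deviate in the same direction in the libraries numbered 3. In log2(CPM + 1), Sham 3 differed from the mean of Sham 1 and 2 by -1.30 for miR-322-5p, -1.49 for miR-542-3p and -0.83 for miR-450b-5p. It differed by 0.84 for miR-542-5p, 0.88 for miR-503-3p and 0.49 for miR-351-5p. For miR-322-3p, miR-503-5p and miR-450b-3p the difference was between -0.15 and -0.03. The members that were low in Sham 3 are poor in G and C, with a GC content of 31.8% to 40.9%, and those that were high have 50% to 62.5%. The 3 with small differences have 36.4% to 56.5%. The part of GC content in the members' values was not tested beyond the offset below. Across 281 tested miRNAs with a RefSeq sequence, the correlation of GC content was r = 0.411 with the TAC 3 difference, r = 0.385 with the Sham 3 difference and r = 0.012 with the log2 fold change of TAC over Sham. These points share 6 libraries and are a description only. In TAC 3 the members' differences ran from -0.42 for miR-322-5p to 0.90 for miR-351-5p.

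With GC content as an offset in each library, chosen after seeing the data, 0 of 9 members passed by edgeR and 18.9% of 281 miRNAs passed lower. The edgeR adjusted p was then 0.0537 for miR-322-3p and 0.059 for miR-542-5p, and 4 members had an unadjusted p under 0.05. At least 84 of the 281 miRNAs met that unadjusted cut, as 84 passed after adjustment in either direction. With that offset and the replicate block together, miR-322-3p (edgeR adjusted p = 0.0374), miR-351-5p (0.0466) and miR-542-5p (edgeR adjusted p = 0.0192) passed, 3 of 9, and 22.4% of the 281 miRNAs passed lower.

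**Figure D4:**
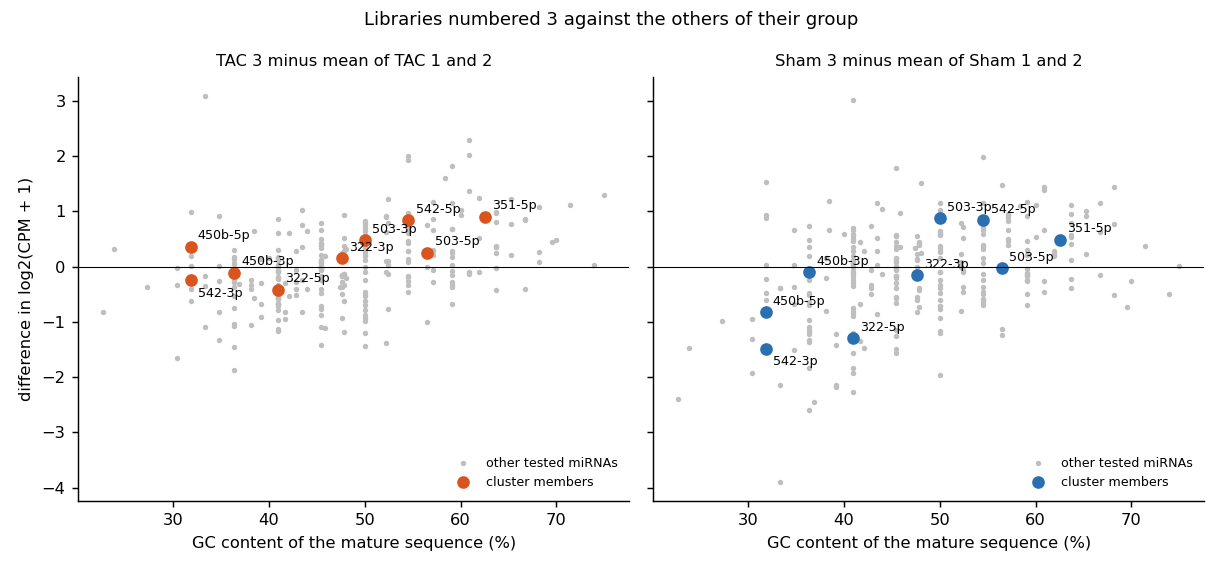
Difference in log2(CPM + 1) between the library numbered 3 and the mean of the other libraries of its group (y axis; TAC left, Sham right) against GC content of the mature sequence in percent, for the members (coloured, named) and the other tested miRNAs (grey). In Sham, miR-322-5p and miR-542-3p lie below -1 at low GC content, and miR-542-5p, miR-503-3p and miR-351-5p lie above 0.4.

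Strands of 1 hairpin come from the same precursor. A ratio of UMIs within a library does not depend on scaling. The UMI ratio of miR-322-5p over miR-322-3p was 29.1, 31.3 and 20.2 in TAC 1, 2 and 3, against 23.0, 29.7 and 11.8 in Sham 1, 2 and 3. The library numbered 3 had the lowest ratio in each group, and the groups overlapped. The mean log2 ratio differed by 0.39 between TAC and Sham, with a two-sided exact permutation p of 0.6 and an adjusted p of 0.7 over 7 ratios. Among libraries of the same number the ratio was higher in TAC in 3 of 3 pairs, with an exact paired permutation p of 0.25, the smallest that 3 pairs allow. The pairing of numbers 1 and 2 is uncertain, and crosswise TAC 1 (29.1) was below Sham 2 (29.7), so this count depends on it. For miR-542-3p over miR-542-5p the ratio was 2.00, 1.10 and 0.643 in TAC, against 1.18, 1.5 and 0.239 in Sham. The stronger arm of this hairpin thus changed with the library, and the mean log2 ratio differed by 0.56 (exact permutation p = 0.7). For miR-503-5p over miR-503-3p the mean log2 ratio differed by -0.20, and for miR-450b-5p over miR-450b-3p by 0.63, with exact permutation p-values of 0.6 and 0.2.

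Between hairpins, the ratio of miR-322-5p over miR-542-3p, a pair of AU-rich strands, did not overlap between the groups. It was 64.4, 69.7 and 60.7 in TAC 1, 2 and 3, against 51.4, 46.6 and 60.3 in Sham 1, 2 and 3. TAC 3 and Sham 3 nearly met. The mean log2 ratio was 5.99 ± 0.103 in TAC and 5.69 ± 0.16 in Sham, a difference of 0.30 with an exact permutation p of 0.1, the smallest that 3 against 3 libraries allow, and an adjusted p of 0.7. Ratios of miR-322-5p over miR-503-5p and over miR-351-5p differed by 0.40 and 0.39 on the log2 scale, with exact permutation p-values of 0.5 and 0.7. Within pairs, the ratios of miR-322-5p over miR-542-3p and over miR-503-5p were each higher in TAC in 3 of 3 pairs (exact paired permutation p = 0.25 for each), and that over miR-351-5p in 2 of 3 (exact paired permutation p = 0.5). These paired values take the same numbers as pairs, which is uncertain for 1 and 2.

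**Figure D5:**
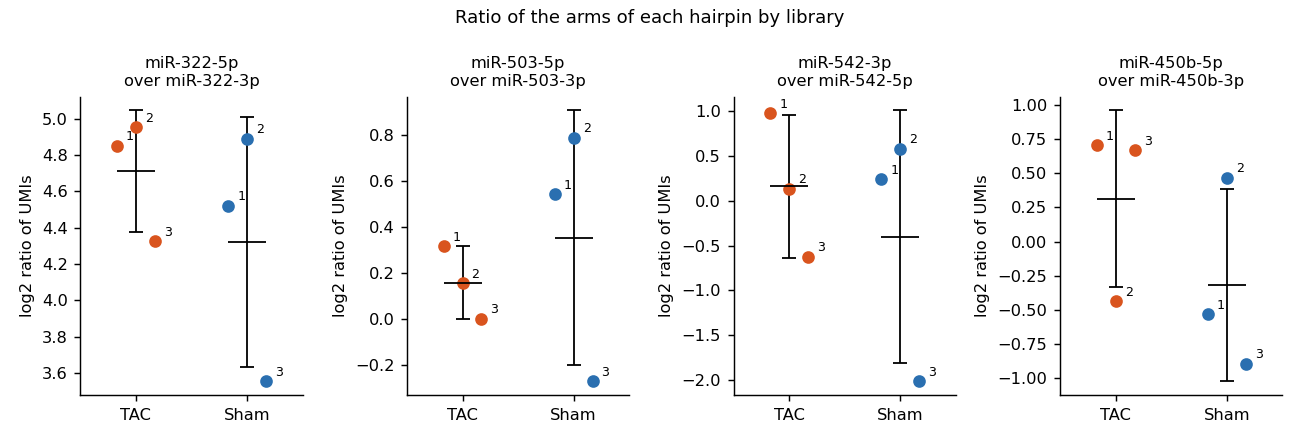
Log2 ratio of UMIs of the 2 arms of each hairpin (y axis, separate scale per panel) in the TAC and Sham libraries; numbers are replicate numbers, and black bars give mean and SD. For miR-322, miR-503 and miR-542 the library numbered 3 has the lowest ratio in each group.

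miRNAs that share the seed of miR-322-5p but come from other loci gave a divided picture. Over all tested miRNAs 22.0% passed by edgeR, 15.8% lower in TAC. Of the 5 tested members of the miR-15/16 family, which restrain cyclins and other cell cycle genes, 1 fell and 4 did not pass. The one that fell, miR-15b-5p, had 48.8, 51.4 and 47.2 CPM in TAC 1, 2 and 3, against 94.7, 102.6 and 77.3 CPM in Sham 1, 2 and 3. Its groups were far apart, and the log2 fold change was -0.90 (SE 0.22, edgeR adjusted p = 0.0298). The far more abundant miR-16-5p had 21955 ± 1151 CPM in TAC and 21030 ± 1327 CPM in Sham, a log2 fold change of 0.06 (SE 0.14). The log2 fold changes were 0.15 for miR-15a-5p, -0.53 for miR-195a-5p (edgeR adjusted p = 0.117, 0.0324 with the replicate block) and -0.75 for miR-497a-5p (0.206, 0.0264 with the block). With the block 3 of the 5 passed lower, miR-15b-5p included (edgeR adjusted p = 0.0137), where 21.7% of all tested miRNAs did. Together the family had 21899 to 23873 CPM in TAC and 20876 to 23241 CPM in Sham, so the sum overlapped between the groups. Most of this sum is miR-16-5p, so it says little about the other 4. Neither miRNA with the seed of miR-351-5p passed: the log2 fold changes were -0.29 (SE 0.35) for miR-125a-5p and 0.11 (SE 0.19) for miR-125b-5p, and their sum was 20766 to 30347 CPM in TAC and 21228 to 30148 CPM in Sham.

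The 5 miRNAs outside the cluster whose pattern over the 6 libraries was most like the members' mean had root mean square differences of 0.145 to 0.222 in centred log2(CPM + 1). They were miR-15b-3p, miR-195a-5p, miR-23a-3p, miR-30b-3p and miR-674-3p. Of these miR-15b-3p was the closest, with 7.73 ± 0.619 CPM in TAC and 12.95 ± 3.06 CPM in Sham. Members themselves lay at 0.146 (miR-322-3p) to 0.572 (miR-450b-5p) from their mean, so several were less like it than these. None of the 5 passed by edgeR (adjusted p from 0.0711 to 0.442).

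Over all tested miRNAs 22.0% passed by edgeR, 15.8% lower and 6.21% higher in TAC. Among 17 tested miRNAs tied to myoblast differentiation and cell cycle exit, 2 rose, 2 fell and 13 did not pass, close to that share. Their median log2 fold change was 0.21. Those that rose were miR-29b-3p (2.02, edgeR adjusted p = 0.00726), which acts on collagens, and miR-26a-5p (0.56, edgeR adjusted p = 0.0345), which acts on the methyltransferase Ezh2. Those that fell were the muscle miRNA miR-206-3p (-2.37, edgeR adjusted p = 0.0342) and miR-31-5p (-1.68, edgeR adjusted p = 0.0251), which acts on Myf5 in mouse satellite cells. Of 13 tested muscle atrophy miRNAs, 1 rose, miR-29b-3p, and 3 fell, miR-31-5p, miR-206-3p and the X-linked miR-532-5p (-0.94, edgeR adjusted p = 0.0169), with a median of -0.09. With the replicate block 34.5% of all tested miRNAs passed and 21.7% passed lower. Of the myoblast list 4 rose and 2 fell with the block, again close to that share. The added ones were miR-133a-3p (0.64, edgeR adjusted p = 0.00926) and miR-133b-3p (0.81, edgeR adjusted p = 0.00684). Of the atrophy list 3 rose and 3 fell with the block, adding miR-133a-3p and miR-21a-5p (0.77, edgeR adjusted p = 0.0296).

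Markers of other cells were read beside these values. Of all tested miRNAs, 22.0% passed by edgeR, 15.8% lower and 6.21% higher in TAC, and 34.5% passed with the replicate block, 21.7% lower. No tested fibroblast (4), immune (6), endothelial (2), smooth muscle and pericyte (4) or erythroid (2) miRNA passed by edgeR, and 1 of them, the fibroblast miRNA miR-214-3p, had an unadjusted edgeR p under 0.05 (0.0474). With the replicate block 1 of these passed, miR-143-5p of the smooth muscle and pericyte list, higher in TAC (0.90, edgeR adjusted p = 0.0227). The 5 fibroblast miRNAs summed to 5764 to 8769 CPM in TAC and 6252 to 8013 CPM in Sham, and the 6 immune miRNAs to 1384 to 1506 CPM in TAC and 1404 to 1921 CPM in Sham. Epithelial and liver markers moved with the groups. All 3 tested epithelial miRNAs, of 5 on the list, fell, and their sum was 1.49 to 7.02 CPM in TAC and 18.98 to 65.5 CPM in Sham. Both liver miRNAs rose, with a sum of 83.5 to 1997 CPM in TAC and 4.92 to 20.7 CPM in Sham. Every listed miRNA has at least 10 UMIs in some library, so a listed marker could not be at 0 over all libraries. The part of other cells in the values of the cluster was not tested. Of the 7 muscle fibre miRNAs, 2 fell, miR-206-3p and miR-208b-3p, miR-208b-3p being at 0 UMIs in TAC 1 and 2, and none rose. With the replicate block 2 of the 7 rose, miR-133a-3p and miR-133b-3p, and 3 fell, the added one being miR-499-5p (-3.48, edgeR adjusted p = 0.0264).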

How the data were processed

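Small RNA of 6 skeletal muscle libraries, 3 TAC and 3 Sham, was made with the QIAseq miRNA kit, per the labels' protocols. Per the file headers, the authors deposited raw counts of UMIs and reads for each feature, with a summary of reads by RNA class. The submitters' processing notes name GRCm38. Aligner and counting rules: not given in the sources used here. Columns were matched to samples by description, and 0 columns were left over.

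UMI counts of miRNAs were tested with edgeR 4.0.16 in R 4.3.3 (TMM, filterByExpr with minimum count 10 and minimum total 15, two-sided quasi-likelihood F test, Benjamini-Hochberg over 322 miRNAs, threshold 0.05), after tests on simulated data. SE is the log2 fold change over the root of F. Ratios used a pseudocount of 0.5 and exact permutation tests, between groups and within same-numbered pairs, in SciPy 1.17.1. Alternatives were other scalings, no filter, DESeq2 1.42.0, limma-voom (limma 3.58.1), reads, a replicate block, leaving out libraries and a GC offset (loess, span 0.75).

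Deviations from group means correlated between same-numbered libraries with r = 0.335, 0.31 and 0.585 across miRNAs for numbers 1, 2 and 3. With r above 0.1 in each, the numbers were read as pairing libraries. What they mark is not stated. TAC 1 with Sham 2 (r = 0.389) and TAC 2 with Sham 1 (r = 0.344) correlated more than the same-numbered libraries 1 and 2. Deviations are from a mean of 3 libraries, so a deviation shared by the libraries numbered 3 alone can give such values. The rule therefore cannot show a pairing of numbers 1 and 2, and the pairing is uncertain. Library identifiers in the labels run over TAC first and Sham second, and any effect of handling in sequence cannot be told apart from surgery.

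Members and gene lists were chosen with earlier results of these data known. Text names all members, the locus arms, the seed families, listed miRNAs past the threshold and the 5 most similar miRNAs. The low UMI counts of the scarcer members limit their precision.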

Additional observations from a re-analysis of the deposited data

How the results depend on the processing

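Over 18 other fits, the log2 fold changes of 8 of 9 members kept their sign. The exception, miR-450b-3p, was 0.047 without TAC 1 and 0.0945 without Sham 1 (range -0.26 to 0.0945 without 1 library). The number of members past the threshold, 1 in the edgeR fit reported, was 0 with upper-quartile factors, without a filter, with DESeq2 and with the GC offset, where 2, 3, 3 and 4 members had an unadjusted p under 0.05. In those fits 75, 65, 73 and 84 miRNAs passed after adjustment, so at least that many met the unadjusted cut. The number of members past the threshold was 1 with RLE factors and with reads, and 2 with limma-voom. It was 3 with library sizes only, with library sizes over all RNA classes, with a threshold of 0.1 and with the GC offset plus replicate block, and 4 with the replicate block. Leaving out 1 library gave 3 members for Sham 3 and 0 for any other. Leaving out both numbered 3, which keeps only libraries 1 and 2 of each group, gave 6. The number of miRNAs past the threshold, 71 of 322, was 111 with the replicate block and 122 of 281 with the GC offset plus replicate block. It was 129 of 337 without both libraries numbered 3, and 17 to 73 without 1 library. RLE factors gave 75, reads 72 and limma-voom 76. Either library size gave 78, and a threshold of 0.1 gave 96. The member counts above are to be read beside these. Library sizes in place of TMM factors shifted the median log2 fold change of all miRNAs by -0.28 and gave 10 higher and 68 lower calls, against 20 and 51 with TMM, and that of the members was then -0.995. The difference in log2 ratio turned sign for miR-503-5p over miR-503-3p without Sham 2 (0.022, range -0.51 to 0.022 without 1 library), and without Sham 3 for miR-542-3p over miR-542-5p (-0.25, range -0.25 to 1.05), miR-322-5p over miR-503-5p (-0.026, range -0.026 to 0.65) and miR-322-5p over miR-351-5p (-0.21, range -0.21 to 0.83). The causes were not tested. Pairing by replicate number could not change the log2 ratio differences, as the mean over complete pairs equals the difference of the group means. The exact paired permutation p-values, added after seeing the data, were 0.25 to 0.75, where 3 pairs cannot go below 0.25. The unannotated sequences gave no result to vary, as none started in the hairpins. Arms of miR-450b had the fewest UMIs.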
